A study of Mus musculus with 6 samples.

Results

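Messenger RNA of 10 genes that act at telomeres or in DNA repair was followed in D2.OR, a line of mouse mammary carcinoma cells, with and without a hairpin directed at Slx4ip. The 10 genes are Pot1a, Nbn, Rad54b, Mms22l, Rad1, Rpa3, Fancg, Xpa, Rad23b and Aptx, and all 10 were found among the 53647 features of the deposited table by the Ensembl identifier of their mouse symbol. They were chosen by name and by their place near the starts of chromosomes 4, 6 and 15, where gene models and reads were taken to match. The rule for the choice used no difference between the groups, but earlier results of these data were known when the genes were chosen. One group, Scram, carried a lentiviral hairpin that targets no gene. The other, shSLX4IP, carried a lentiviral hairpin directed at Slx4ip. Both groups were selected with puromycin and cultured for 7 days in 3 dimensions, on solidified Cultrex (a basement membrane extract) under medium that held 10% serum and 5% Cultrex. Each group had 3 libraries, called A, B and C, and the values of a group are given in that order. The labels describe 1 hairpin per group and call the replicates biological without saying that they came from separate cultures, so the p-values measure the spread between these samples, which may be technical.

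The ends of chromosomes are covered by shelterin, a protein complex that hides them from the repair machinery, and POT1 is its subunit that binds the single-stranded overhang. SLX4IP is a partner of the nuclease scaffold SLX4 and is known for a role at telomeres, including those kept by recombination. The other 9 genes serve repair routes that meet at broken or stalled DNA. The MRN complex, of which NBN is a subunit, senses double-strand breaks, RPA coats exposed single strands, the RAD9-RAD1-HUS1 clamp starts checkpoint signalling there, and recombination, crosslink repair and excision repair follow. These are background facts and not results of the libraries described here.

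The RefSeq promoter table (GRCm38.p6) held 8 of the 10 genes, and Nbn and Rad54b were not among them. The 250 bases before the start site are given 5′ to 3′ for Pot1a, the gene with the largest rise among the 10, and for Mms22l and Rad23b, which were lower in shSLX4IP. Capitals mark matches to a GC box (GGGCGG) or a CCAAT box (CCAAT) on either strand.
Pot1a (chr6:25809219-25809468, minus strand): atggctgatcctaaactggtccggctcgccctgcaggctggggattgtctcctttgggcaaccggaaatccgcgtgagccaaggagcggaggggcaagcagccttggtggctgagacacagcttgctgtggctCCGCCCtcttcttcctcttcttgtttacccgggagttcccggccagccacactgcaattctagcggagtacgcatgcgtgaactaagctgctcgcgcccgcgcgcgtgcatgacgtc
Mms22l (chr4:24496201-24496450, plus strand): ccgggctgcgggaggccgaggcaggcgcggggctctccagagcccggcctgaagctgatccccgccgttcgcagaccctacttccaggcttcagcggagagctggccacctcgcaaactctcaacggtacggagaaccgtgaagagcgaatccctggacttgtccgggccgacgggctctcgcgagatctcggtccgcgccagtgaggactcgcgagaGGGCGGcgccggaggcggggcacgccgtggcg
Rad23b (chr4:55349792-55350041, plus strand): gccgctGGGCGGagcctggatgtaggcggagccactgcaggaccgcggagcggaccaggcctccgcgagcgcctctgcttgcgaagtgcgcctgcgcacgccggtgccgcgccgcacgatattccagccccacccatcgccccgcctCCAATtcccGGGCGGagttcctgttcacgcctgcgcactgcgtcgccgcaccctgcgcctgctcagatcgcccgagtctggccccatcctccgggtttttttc

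A GC box was found in these windows of 4 of the 8 genes (Pot1a, Mms22l, Rad23b and Rpa3), against 32.7% of the 32851 promoter windows in the table. CCAAT was found in 4 of 8 (Rad23b, Rpa3, Xpa and Aptx), against 33.8% of all windows. The E2F letters TTTCGCGC, TTTGGCGC or TTTCCCGC matched in Fancg alone of the 8 (1.53% of all windows). The RefSeq start site of Fancg lies 205 bases inside the gene by the coordinates given below, so this match lies within the gene as placed there. The ETS letters CCGGAAGT matched in Rad1 and Rpa3 (2.88%), and the CRE letters TGACGTCA in Aptx (1.55%). The NRF1 palindrome, YY1 (AAGATGGC) and TATAAA had no match in the 8 windows, against 0.782%, 1.56% and 12.4% of all windows. GC boxes were present both in Pot1a and in Mms22l and Rad23b, whose values moved the other way. A match describes letters and not a bound site, and any relation of a match to a change in value was not tested.

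Each library held 5433573 to 6693111 reads recovered from the normalised counts. Most gene identifiers of the table cannot be read by name, because genes that all cells use are listed at 0 there. Genes are therefore named only inside 4 stretches, at the starts of chromosomes 4, 6, 15 and 18, where values along neighbouring genes are high, and on the mitochondrial genome; these features are called placed. All 10 genes lie in the stretches of chromosomes 4, 6 and 15. Slx4ip (ENSMUSG00000027281.17, chromosome 2, 136891218 to 137071950) lies outside and was listed at 0 in all 6 libraries (exact permutation p = 1, 2-sided, where 0.1 is the smallest possible), so it gave no check of the labels. Scram A stood apart. Its normalised counts summed to 8948118, against 5276405 to 5974334 in the other libraries, and it had 8464 features above 0, against 10548 to 11611. The larger sum reflects its scaling and not more reads. Its 6110599 recovered reads lay within the range of the other libraries, but each read stood for 1.46 normalised counts, against 0.796 to 0.976 elsewhere. Over all 8127 features tested it correlated with Scram B and C at 0.763 and 0.804 (log2 values, across features), and B with C at 0.876. Among 353 nuclear placed genes, Scram A had a median log2 ratio to the mean of the other Scram libraries of 0.84 among the shortest genes (306 to 3385 exonic bases) and of -0.27 among the longest (5995 to 23395). The fold change of each of the 10 genes is therefore also given without Scram A. Of 13 stromal, immune and endothelial markers 1 was placed, the collagen gene Col1a2, at 20226 to 25022 in Scram and 239 to 302 in shSLX4IP. Of 10 epithelial markers 2 were placed, Grhl2 and Esrp1, with a low summed value of 26.2 to 82.0 in Scram and 2.93 to 22.6 in shSLX4IP. Grhl2 was at 68.8, 16.8 and 61.1 in Scram and at 16.3, 2.93 and 20.7 in shSLX4IP. Its groups overlapped and it did not pass the limma test described below. Esrp1 was at 13.2 or less in every library, with a mean under the 10 needed for testing. The remaining markers lie outside the placed stretches and were not read. The part of these differences in the results that follow was not tested, and in bulk samples fewer cells of a type and less RNA per cell cannot be told apart.

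**Figure D1:**
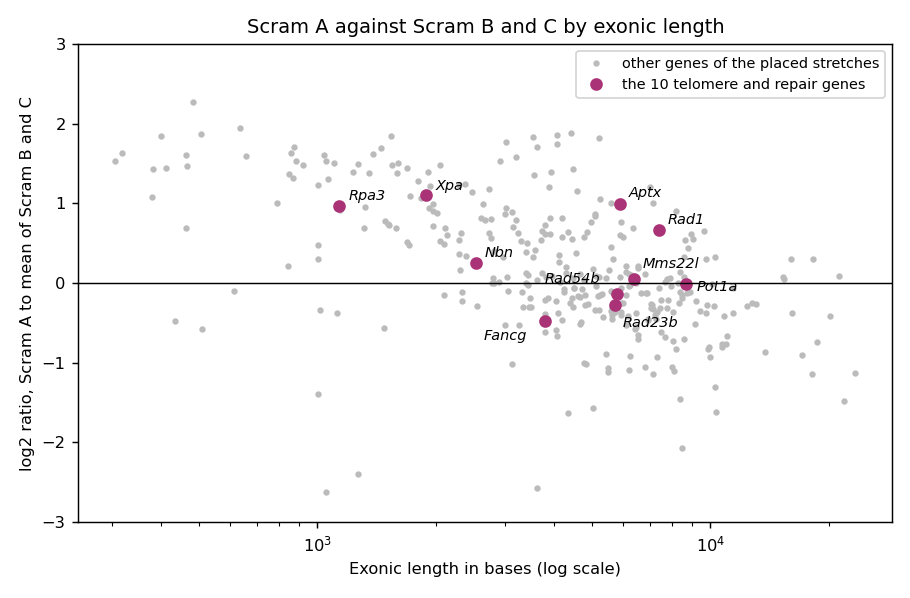
Log2 of the Scram A value over the mean of Scram B and C (vertical axis) against exonic length in bases (horizontal, log scale) for 353 nuclear placed genes with a mean of at least 100, with the 10 telomere and repair genes in colour. Rad1 lies at 0.67, Rpa3 and Aptx near 1 and Xpa above them, with Pot1a and Mms22l near 0; 4 grey genes lie below the axis, which ends at -3.

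Pot1a rose in shSLX4IP, and Nbn, Mms22l and Rad23b fell. The other 6 genes did not pass the test: limma on log2(normalised count + 1), with Benjamini-Hochberg adjustment over all 8127 features and a threshold of 0.05. Thus 1 of 10 was higher and 3 of 10 lower, against 11.7% and 11.3% of all features tested (23.0% in either direction) and 17.3% and 22.9% of the 462 placed features (40.3%). The 4 calls among 10 are near the share among placed features. Libraries of the groups did not overlap for 7 of the 10 genes, against 53.5% of all features and 67.1% of placed ones. The median log2 fold change, shSLX4IP over Scram, was 0.15 over the 10 genes, 0.25 over all features and -0.23 over placed features. Without Scram A, 4 of the 10 were higher (Pot1a, Rad54b, Rpa3 and Xpa) and the same 3 were lower, against 23.3% and 19.4% of all features (42.7% in either direction) and 29.0% and 36.1% of placed ones (65.2%). All fold changes below are on the log2(value + 1) scale.

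**Figure D2:**
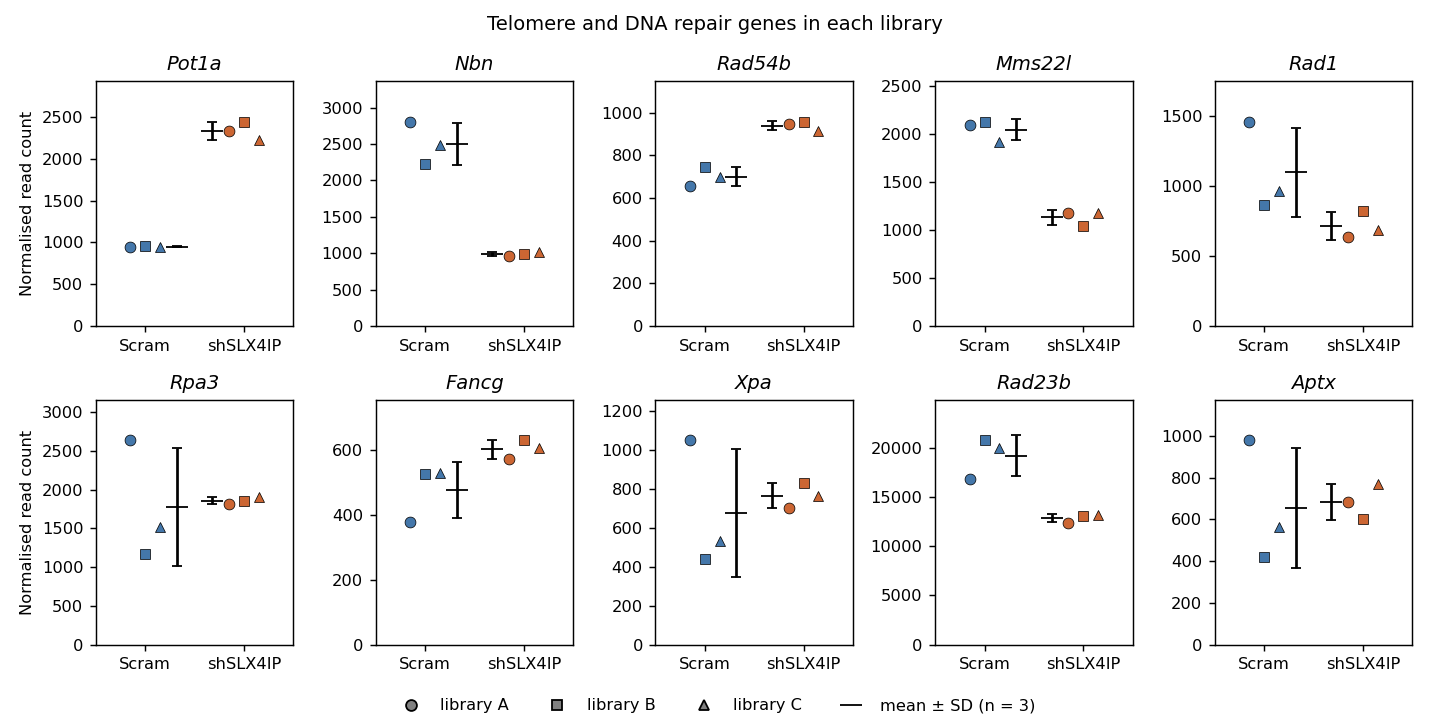
Normalised read count (vertical axes, from 0) of each gene in the 3 Scram and 3 shSLX4IP libraries, with marker shapes for libraries A, B and C and the mean ± SD of each group beside its points. The groups separate without overlap for Pot1a, Nbn, Rad54b, Mms22l, Rad1, Fancg and Rad23b, and Scram A is the highest of the 6 libraries for Nbn, Rad1, Rpa3, Xpa and Aptx.

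Pot1a was the 1 shelterin gene among those placed, and it rose. Pot1a (ENSMUSG00000029676.16, chromosome 6, 25743737 to 25809246, minus strand) encodes the shelterin subunit that binds the telomeric overhang, and mice carry another POT1 gene, Pot1b, outside the placed stretches. Its normalised count was 942, 952 and 951 in the Scram libraries and 2337, 2442 and 2221 under shSLX4IP. The Scram libraries lay close together, and each shSLX4IP library was more than 2 times as high as each of them. The means were 948 ± 5.63 and 2333 ± 110 (SD, n = 3 each), a rise of 2.46-fold (log2 fold change 1.30, SE 0.12, 95% interval 0.99 to 1.60, limma adjusted p = 0.00189). Without Scram A the log2 fold change was 1.29 (limma adjusted p = 0.000457). Scram A did not stand apart for this gene, at 0.990 times the mean of Scram B and C, and its exons overlap no other annotated gene. The call was kept in all 18 other settings, with the adjusted p at 0.0402 or less.

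Among the genes of double-strand break repair, Nbn fell and Rad54b did not pass. Nbn (ENSMUSG00000028224.15, chromosome 4, 15957925 to 15992589, plus strand) encodes nibrin, the MRN subunit that recruits and activates the ATM kinase. It was at 2804, 2222 and 2482 in the Scram libraries and at 968, 983 and 1012 under shSLX4IP. Every shSLX4IP library was below every Scram library by a factor of more than 2, and the shSLX4IP values lay close together. The mean fell from 2503 ± 292 to 987 ± 22.5 (SD, n = 3 each), or 2.52-fold (log2 fold change -1.33, SE 0.14, 95% interval -1.69 to -0.98, limma adjusted p = 0.00283). Its exonic length is 2533 bases, and its Scram A value was 1.19 times the mean of B and C. Without Scram A the log2 fold change was -1.25 (limma adjusted p = 0.000613), and with each library's trend with exonic length removed it was -1.10 (limma adjusted p = 0.000247).

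Rad54b (ENSMUSG00000078773.12, chromosome 4, 11558922 to 11615805, plus strand) encodes a motor protein of the SWI2/SNF2 family that works in recombination. It was at 656, 745 and 698 in the Scram libraries and at 947, 957 and 914 under shSLX4IP. The shSLX4IP libraries were all above the Scram libraries, yet the difference did not pass (700 ± 44.7 against 939 ± 22.4, SD, n = 3 each; log2 fold change 0.43, SE 0.14, 95% interval 0.08 to 0.77, limma adjusted p = 0.0821). It passed in 5 of 18 alternatives, one of which left out Scram A (log2 fold change 0.38, limma adjusted p = 0.0140). Rad54b shares 2068 exonic bases, 35.8% of its exonic length, with Fsbp on the same strand, so reads of these 2 genes can be confused there.

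Mms22l fell, with and without Scram A. Mms22l (ENSMUSG00000045751.17, chromosome 4, 24496451 to 24602950, plus strand) encodes the partner of TONSL in a complex that acts at damaged replication forks. Its normalised count was 2095, 2128 and 1920 in the Scram libraries and 1182, 1041 and 1175 under shSLX4IP. The lowest Scram library was well above the highest shSLX4IP library. The mean fell from 2048 ± 112 to 1133 ± 79.7 (SD, n = 3 each), or 1.81-fold (log2 fold change -0.85, SE 0.13, 95% interval -1.19 to -0.52, limma adjusted p = 0.00937). Without Scram A the log2 fold change was -0.84 (limma adjusted p = 0.00282). After quantile normalization it was -0.53 and did not pass (limma adjusted p = 0.0821). With the column letters as a replicate block it did not pass either (limma adjusted p = 0.0768), and the other 16 of 18 settings kept the call.

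Of the genes that mark and signal from exposed single strands, neither passed. Rad1 (ENSMUSG00000022248.15, chromosome 15, 10486018 to 10499063, plus strand) encodes a subunit of the checkpoint clamp loaded at damaged DNA. It was at 1459, 868 and 964 in the Scram libraries and at 634, 825 and 687 under shSLX4IP. The groups did not overlap, but Scram B and shSLX4IP B were close (log2 fold change -0.59, SE 0.25, 95% interval -1.20 to 0.03, limma adjusted p = 0.143). Rpa3 (ENSMUSG00000012483.5, chromosome 6, 8255936 to 8259173, minus strand), the smallest subunit of the single-strand binding protein RPA, was at 2637, 1172 and 1516 in the Scram libraries. It was at 1813, 1857 and 1906 under shSLX4IP. Scram A was the highest of the 6 libraries and Scram B and C the lowest, so the groups overlapped (log2 fold change 0.15, SE 0.31, 95% interval -0.62 to 0.92, limma adjusted p = 0.728). Rpa3 has the shortest exonic length of the 10 genes, 1136 bases. Without Scram A its log2 fold change was 0.48 and it passed (limma adjusted p = 0.0345), while that of Rad1 was -0.36 and it did not (limma adjusted p = 0.0972). With the length trend removed Rpa3 was at 0.67 and also passed (limma adjusted p = 0.00750).

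The 2 genes of damage recognition in nucleotide excision repair differed in level and in outcome. Rad23b (ENSMUSG00000028426.11, chromosome 4, 55350043 to 55392237, plus strand) encodes a partner of the damage sensor XPC that also carries ubiquitinated proteins to the proteasome. It was at 16814, 20728 and 19950 in the Scram libraries and at 12372, 13097 and 13103 under shSLX4IP. The shSLX4IP libraries were all below the Scram libraries, and Scram A was the Scram library nearest to them. The mean fell from 19164 ± 2072 to 12857 ± 421 (SD, n = 3 each), or 1.48-fold (log2 fold change -0.57, SE 0.12, 95% interval -0.87 to -0.27, limma adjusted p = 0.0254). Without Scram A it was -0.66 (limma adjusted p = 0.00126), but 9 of 18 other settings ended the call, including the fits that left out Scram B (limma adjusted p = 0.0555), Scram C (0.0997) or shSLX4IP A, B or C (0.125, 0.119 and 0.118). The sign of Rad23b reversed after quantile normalization (log2 fold change 0.13, limma adjusted p = 0.786), which moved the median of placed features from -0.23 to 0.06.

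Xpa (ENSMUSG00000028329.14, chromosome 4, 46155347 to 46196311, minus strand) encodes the scaffold protein that verifies damage before excision. It was at 1048, 440 and 534 in the Scram libraries and at 699, 830 and 764 under shSLX4IP. Scram A lay above all shSLX4IP libraries and Scram B and C below them (log2 fold change 0.28, SE 0.35, 95% interval -0.58 to 1.15, limma adjusted p = 0.559). Without Scram A the log2 fold change was 0.65 and the gene passed (limma adjusted p = 0.0157), as it did with the length trend removed (0.69). Exons of Xpa share 77 bases with Ncbp1 on the other strand, a gene with a mean of 5225 over the 6 libraries.

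Fancg and Aptx did not pass with or without Scram A. Fancg (ENSMUSG00000028453.11, chromosome 4, 43002343 to 43010506, minus strand) encodes a subunit of the Fanconi anaemia core complex, which ubiquitinates FANCD2 and FANCI at crosslinks. It was at 378, 526 and 530 in the Scram libraries and at 572, 631 and 607 under shSLX4IP. The groups did not overlap, and Scram A was the lowest library (log2 fold change 0.35, SE 0.20, 95% interval -0.14 to 0.84, limma adjusted p = 0.241; 0.19 and 0.132 without Scram A). Aptx (ENSMUSG00000028411.16, chromosome 4, 40682382 to 40703194, minus strand) encodes aprataxin, which removes adenylate groups left at strand breaks by failed ligation. It was at 978, 421 and 562 in the Scram libraries and at 682, 599 and 770 under shSLX4IP. Scram A was the highest and Scram B the lowest of the 6 libraries (log2 fold change 0.15, SE 0.34, 95% interval -0.69 to 0.98, limma adjusted p = 0.757; 0.48 and 0.0875 without Scram A).

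**Figure D3:**
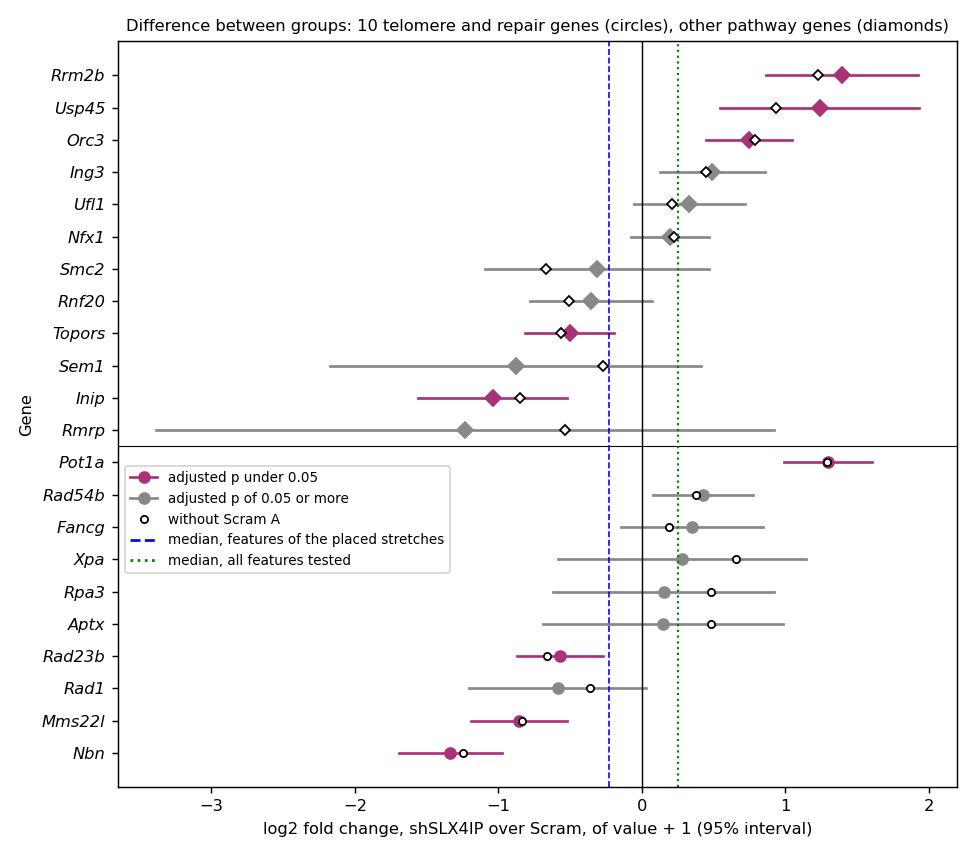
Log2 fold change, shSLX4IP over Scram, with its 95% interval for the 10 telomere and repair genes (circles) and 12 other pathway genes (diamonds), coloured where the limma adjusted p was under 0.05; open markers leave out Scram A, and vertical lines mark the median of placed features (dashed, -0.23) and of all features (dotted, 0.25). Pot1a at 1.30 and Nbn at -1.33 are the highest and the lowest of the 10, and the intervals of Rad1, Fancg, Rpa3, Xpa and Aptx span 0.

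Ratios of 2 genes within a library do not depend on its size factor, but a library's trend with exonic length can remain in them. The pairs were chosen after the values were seen and are given as a description with no test. The ratio of Pot1a to Nbn was 0.336, 0.428 and 0.383 in the Scram libraries and 2.42, 2.48 and 2.20 under shSLX4IP, a change of 6.21-fold. Nbn thus had the higher count in every Scram library and Pot1a in every shSLX4IP library. The exonic lengths of Pot1a and Nbn differ (8669 and 2533 bases). With the length trend removed their log2 fold changes were 1.15 and -1.10, against 1.30 and -1.33 in the main fit. The ratio of Rad54b to Mms22l, genes of similar exonic length (5782 and 6382 bases), was 0.313, 0.350 and 0.364 in Scram and 0.801, 0.919 and 0.778 in shSLX4IP, 2.43-fold. The ratio of Rpa3 to Rad1 was 1.81, 1.35 and 1.57 in Scram and 2.86, 2.25 and 2.77 in shSLX4IP, 1.67-fold and without overlap between the groups, although neither gene passed alone. Rpa3 and Rad1 also differ in exonic length (1136 and 7400 bases), and with the length trend removed their log2 fold changes were 0.67 and -0.65. The ratio of Xpa to Rad23b (1894 and 5733 exonic bases) was 0.0624, 0.0212 and 0.0268 in Scram and 0.0565, 0.0634 and 0.0583 in shSLX4IP, with Scram A among the shSLX4IP libraries.

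**Figure D4:**
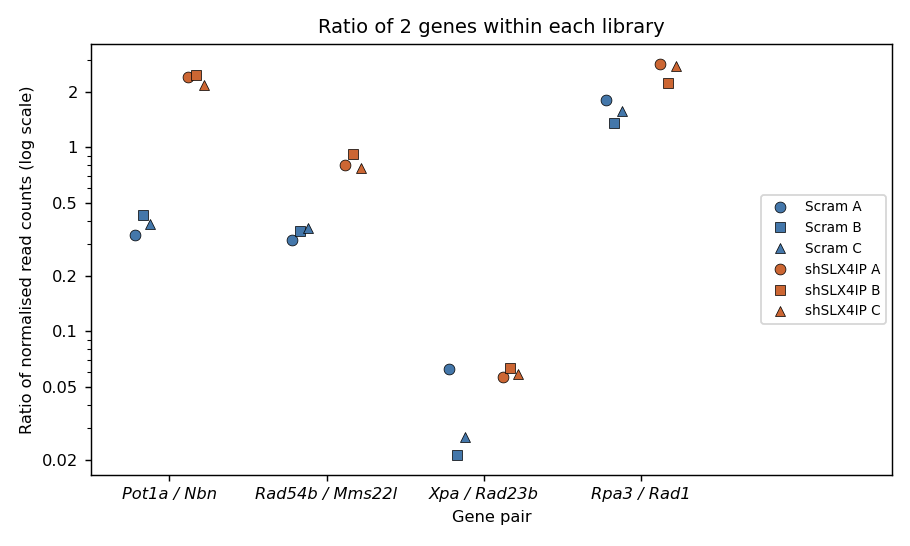
Ratio of the normalised counts of 2 genes within each library (vertical, log scale) for 4 pairs, with blue for Scram, orange for shSLX4IP and marker shapes for libraries A, B and C. The ratio of Pot1a to Nbn lies between 0.336 and 0.428 in Scram and between 2.20 and 2.48 in shSLX4IP.

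Levels were compared between genes per kilobase of annotated exon, on which the order is given as a description. In Scram the level was highest for Rad23b (3343 ± 361 per kb, SD, n = 3), then Rpa3 (1563 ± 674), Nbn (988 ± 115), Xpa (356 ± 173) and Mms22l (321 ± 17.6). Rad1, Fancg, Rad54b, Aptx and Pot1a followed at 148, 126, 121, 111 and 109 per kb. The ranges of neighbours in this order overlapped for Rpa3 and Nbn, for Xpa and Mms22l, and among the lowest 5. In shSLX4IP Rad23b (2243 ± 73.3 per kb) and Rpa3 (1636 ± 41.0) were again the highest, followed by Xpa (404 ± 34.4) and Nbn (390 ± 8.88), whose ranges overlapped. Pot1a came next at 269 ± 12.7 per kb, above the ranges of Mms22l, Rad54b, Fancg, Aptx and Rad1 (177, 162, 159, 116 and 96.7 per kb). Pot1a thus went from the lowest mean level of the 10 genes in Scram to the fifth in shSLX4IP. Its place as the lowest in Scram rests on Scram A, since Aptx was at 71.6 and 95.5 per kb in Scram B and C, below Pot1a in both, and at 166 in Scram A.

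Beyond the 10 genes, the 10 lists of telomere and repair genes held 12 that were placed, of 258 genes in all. Of these 12, 3 were higher (Rrm2b, Usp45 and Orc3), 2 were lower (Inip and Topors) and 7 did not pass, and their median log2 fold change was -0.06. Shares among placed features were 17.3% higher and 22.9% lower (40.3% in either direction), and among all features tested 11.7% and 11.3% (23.0%). Rrm2b, the ribonucleotide reductase subunit that supplies nucleotides for repair, was at 313, 487 and 406 in the Scram libraries and at 953, 1102 and 1076 under shSLX4IP (log2 fold change 1.39, SE 0.21, limma adjusted p = 0.00843). Every shSLX4IP library was above every Scram library, and 734 of its exonic bases overlap an annotated antisense gene. Usp45, a deubiquitinase that acts on ERCC1 in excision repair, was at 917, 1850 and 1599 in Scram and at 3293, 3329 and 3247 in shSLX4IP (log2 fold change 1.24, SE 0.28, limma adjusted p = 0.0300; 0.94 and 0.00137 without Scram A). Its 2 Scram libraries other than A lay closer to the shSLX4IP values than Scram A did, and its exons share 57 bases with Tstd3 on the other strand. Orc3, a subunit of the origin recognition complex, was at 1811, 1681 and 1617 in Scram and at 2891, 2887 and 2778 in shSLX4IP (log2 fold change 0.74, SE 0.12, limma adjusted p = 0.0103).

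Inip, a small subunit of the SOSS complex that binds single-stranded DNA at breaks, was at 1735, 1202 and 1127 in Scram and at 615, 647 and 677 in shSLX4IP (log2 fold change -1.04, SE 0.21, limma adjusted p = 0.0209). Topors, a ubiquitin and SUMO ligase that binds topoisomerase I, was at 3248, 3784 and 3597 in Scram and at 2640, 2435 and 2410 in shSLX4IP (log2 fold change -0.50, SE 0.13, limma adjusted p = 0.0390). Both were lower in every shSLX4IP library than in any Scram library. After quantile normalization Topors was at -0.02 (limma adjusted p = 0.940), and 11 of 18 other settings ended its call, including each fit that left out Scram B, Scram C or any 1 shSLX4IP library (limma adjusted p of 0.0672 to 0.139). The calls of Orc3, Usp45 and Inip were lost in 4, 7 and 4 of 18 settings. Without Scram C the limma adjusted p of Usp45 was 0.0684, and without shSLX4IP A, B or C those of Usp45 were 0.107, 0.112 and 0.108 and those of Inip 0.0858, 0.0834 and 0.0741. For Orc3 they were 0.0545 without shSLX4IP A and 0.0539 without shSLX4IP B. Rrm2b kept its call in all 18. Without Scram A the log2 fold changes of Rrm2b, Orc3, Inip and Topors were 1.23, 0.79, -0.85 and -0.57, and all 4 passed (limma adjusted p of 0.00193, 0.000906, 0.00177 and 0.00364).

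The 7 placed genes that did not pass included 4 of the double-strand break list. Sem1, a small BRCA2 partner that is also a proteasome subunit, was at 17486, 4554 and 5301 in the Scram libraries and at 4166, 4103 and 3955 in shSLX4IP, with a log2 fold change of -0.88 (limma adjusted p = 0.255) that was -0.27 without Scram A (0.0563). Ufl1, a UFM1 ligase that acts in ATM activation, had a log2 fold change of 0.33 (limma adjusted p = 0.176). Rnf20, the ligase for histone H2B ubiquitin, was at -0.36 (limma adjusted p = 0.182), a sign that turned after quantile normalization (0.10). Ing3, a subunit of the TIP60 acetyltransferase complex, was at 0.49 (limma adjusted p = 0.0650). Smc2, a core subunit of condensin, was at 3444, 7728 and 6716 in Scram and at 4541, 4541 and 4517 in shSLX4IP, with shSLX4IP libraries inside the range of Scram (log2 fold change -0.31, limma adjusted p = 0.479). Without Scram A Smc2 was at -0.67 and passed (limma adjusted p = 0.00292). In the telomere list, Nfx1, a zinc finger protein known as a regulator of Tert, was at 0.20 (limma adjusted p = 0.230). The RNA gene Rmrp, at 65.9 or less in every library, was at -1.23 (limma adjusted p = 0.330). Its exons lie wholly within another annotated copy of the gene, and RNA without a poly(A) tail is poorly captured by the kit used. Rmrp also shares 124 bases, 45.8% of its exonic length, with Ccdc107 on the other strand, a gene with a mean of 2454. Whether reads of Ccdc107 were counted for Rmrp was not tested. Without Scram A, Nfx1, Ufl1, Rnf20 and Ing3 also passed (limma adjusted p of 0.0489, 0.0396, 0.00604 and 0.0236), which left Sem1 and Rmrp. In that fit 42.7% of all features and 65.2% of placed ones passed.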

How the data were processed

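RNA was sequenced from 3 Scram and 3 shSLX4IP samples with a stranded poly(A) kit from 1 µg of total RNA, per the labels' protocols. Tools listed in the submitters' processing notes are DESeq2 1.22.1, StringTie 2.1.7, STAR 2.7.7 and fastp 0.19.5, and GRCm38 (mm10) is the build they list. The sources used here give no annotation release, filter or strand setting. Per gene, the table deposited by the authors holds a normalised signal, which from its values is a read count over a library's size factor. Low values were whole multiples of 1 step per library, and 99.98% to 100% of values above 0 lay within 0.1 of a whole number of reads. Columns carry letters and labels carry numbers, so a letter only names a library of its group.

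Symbols, coordinates and exonic lengths are from GENCODE M21 (GRCm38), matched by identifier without version. The deposited identifiers of the 10 genes carry later versions than those of M21. The gene models used for counting may therefore differ from those used here for coordinates and exonic lengths, which was not tested. Placed stretches were maximal-scoring runs of protein-coding genes, where a mean of at least 1000 scored 3 and any other -1, with a score of at least 30 (41 to 191, and 18 for the next). This rule uses high values and no group difference. Features with a mean of at least 10 were tested with limma 3.58.1 in R 4.3.3 with an intensity trend, 2-sided, on log2(value + 1). Intervals are 95% intervals of that fit. A count test on recovered reads called 1566 features with edgeR 4.0.16 and 3226 with DESeq2 1.42.0. The limma script was tested on simulated data. The genes, lists and settings were chosen with earlier results of these data known. Genes named are the 10, Slx4ip, placed list genes and the nearest tested gene on each side of the 10; markers were also named.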

Additional observations from a re-analysis of the deposited data

How the results depend on the processing

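Of 180 values of the 10 genes under 18 other settings, 158 kept direction and side of the threshold, 10 lost the call, 9 gained one and 3 reversed. After quantile normalization 2 of the 10 were higher and 1 lower, 5 of the 12 other pathway genes were higher and 1 lower, and Rad23b (0.13), Rnf20 (0.10), Smc2 (0.14), Virma (0.42) and Tstd2 (0.13) reversed; the cause was not tested. DESeq2 called 2 of the 10 higher and 1602 features higher and 1624 lower. Adjusted over placed features alone, 2 of the 10 were higher and 3 lower, against 100 and 129 of 462 features. With the length trend removed 4 were higher and 3 lower, against 131 and 139 of 431 features, and 5 other pathway genes were higher. Of these other genes 1 was lower with no filter, with TMM factors and with edgeR, and 1 was higher and 1 lower without the trend. Without 1 library, 1 to 4 of the 10 were higher and 2 to 3 lower, 1 to 6 other pathway genes were higher and 0 to 4 lower, and 433 to 1895 features were higher and 410 to 1573 lower. In these fits without 1 library, the log2 fold change of Rpa3 ran from -0.11 (without Scram B) to 0.48 (without Scram A), that of Aptx from -0.12 to 0.48 and that of Virma from -0.21 to 0.021. Deviations of same-lettered samples from their group means did not correlate above 0.1, and no sample correlated best with its own letter. All correlations between the groups lay between -0.021 and 0.018, so their order carries no weight. They showed no pairing by letter but cannot exclude it, with 3 libraries per group. With the letters as a replicate block, 1 of the 10 was higher and 1 lower, 1 other pathway gene was higher and 0 lower, and 365 features were higher and 309 lower.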

Other observations

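The nearest tested protein-coding gene on each side of the 10 genes gives 20 neighbours, of which 4 were higher in shSLX4IP, 7 were lower and 9 did not pass, with a median log2 fold change of -0.17. Among all placed features 17.3% were higher and 22.9% lower (40.3% in either direction), and among all features tested 11.7% and 11.3% (23.0%). The gap to the gene ran from 0.071 kb (Brix1 and Rad1) to 2431 kb (Zfp800 and Pot1a), so a neighbour need not be adjacent. The sign was that of the telomere or repair gene beside it for 9 of 20. Next to Rad23b, the zinc finger gene Zfp462 rose from 221 ± 68.5 to 2385 ± 153 (SD, n = 3 each; log2 fold change 3.47, limma adjusted p = 0.000914) and the transcription factor gene Klf4 fell from 3038 ± 127 to 160 ± 13.8 (-4.24, limma adjusted p = 0.000203). Next to Rad54b, Gem, a small GTPase gene, fell from 535 to 24.1 on average (-4.53, limma adjusted p = 0.00151), while Virma on its other side did not pass (-0.11, limma adjusted p = 0.632). Of the neighbours of Mms22l, Fbxl4, 2062 kb away, rose (1.74, limma adjusted p = 0.00233). Ndufaf4, an assembly factor of respiratory complex I 295 kb away, fell (-1.75, limma adjusted p = 0.00491).

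Brix1, a ribosome biogenesis gene that begins 0.071 kb from Rad1, fell from 3174 ± 1648 to 851 ± 75.2 (SD, n = 3 each; log2 fold change -1.78, limma adjusted p = 0.0210), and Rai14 on the other side of Rad1 rose (1.02, limma adjusted p = 0.00476). Vcp, the segregase gene 1.84 kb from Fancg, fell from 45246 ± 12356 to 14840 ± 162 (-1.57, limma adjusted p = 0.00477), and Dnaja1, a chaperone gene beside Aptx, fell from 12855 ± 2953 to 4480 ± 176 (-1.50, limma adjusted p = 0.00415). Among neighbours of other genes with calls, Wasl, 1079 kb from Pot1a, rose (0.90, limma adjusted p = 0.0124). Osgin2, 4.53 kb from Nbn, fell (-0.92, limma adjusted p = 0.0289). Decr1, on the other side of Nbn, was at 2432, 1007 and 1097 in Scram and at 2844, 2803 and 2744 in shSLX4IP and did not pass (1.01, limma adjusted p = 0.0953). The other 7 neighbours, Zfp800, Mios, Umad1, Pigo, Tstd2, Trmo and Ndufb6, did not pass. Without Scram A every neighbour kept its sign, the called ones stayed called, and Decr1, Mios, Ndufb6, Pigo and Tstd2 also passed. In that fit 65.2% of placed features passed. Some calls among the neighbours were lost in fits without 1 library. These were the calls of Wasl (limma adjusted p of 0.0620 to 0.0648 without any 1 shSLX4IP library), Osgin2 (0.0635 without Scram C and 0.0710 to 0.103 without any 1 shSLX4IP library) and Brix1 (0.0506 without Scram C and 0.0811 to 0.0890 without any 1 shSLX4IP library). Calls over all features tested also fell, from 1872 with all 6 libraries to 844 to 859 without any 1 shSLX4IP library.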
